A study of Mus musculus with 4 samples.

Results

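The genes described here are the chromatin remodelers and the histone or DNA modifying enzymes of 7 families in the cranial neural tube of mouse embryos. They were chosen as protein-coding genes whose GENCODE M21 symbol places them among the Chd, Smarc, Arid1, Arid2, Kdm, Kmt2, Hdac, Dnmt or Tet genes, with at least 20 counts summed over the 4 libraries. Of 68 protein-coding genes with such a symbol, 65 reached that minimum, out of 54532 gene IDs in the count table. The lowest inside were Kdm4d with 36 counts and Chd5 with 72, and the 3 outside were Dnmt3l with 7, Dnmt3c with 4 and the Y-linked Kdm5d with 0. Of the 65 members, 64 passed the filter on low counts and were tested, and the exception was Kdm4d.

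RNA was sequenced from microdissected cranial neural tubes at embryonic day 10.5, from 2 embryos per group with 1 library each. DCKO embryos carried Lats1 flox/flox and Lats2 flox/flox alleles together with the transgene E2f1 Tg(Wnt1-cre)2Sor/+, in which Wnt1 regulatory sequences drive Cre in the dorsal neural tube and the neural crest that leaves it. Control embryos lacked that transgene, and whether they carried floxed alleles is not stated. Recombination is thus limited to some of the cells dissected, and an effect of the transgene itself cannot be told apart from loss of the LATS kinases.

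Chromatin remodelers use ATP to slide, eject or exchange nucleosomes. SWI/SNF (BAF) complexes are built around the ATPase encoded by Smarca4 or Smarca2, ISWI complexes around Smarca5 or Smarca1, and CHD proteins act alone or, as Chd3 and Chd4 do, in the NuRD complex. Histone lysine demethylases and methyltransferases remove or add methyl groups, deacetylases remove acetyl groups, DNA methyltransferases methylate cytosine in CpG pairs, and TET dioxygenases oxidise that methyl group as a step in its removal. In neural development, subunits of SWI/SNF are known to be exchanged as progenitors become neurons, and CHD7 is known for its role in neural crest.

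Library totals ranged from 41798361 to 55137810 counts. Genes at the ribosomal cluster of chromosome 17 held 24.7% and 30.3% of all counts in DCKO, against 13.2% and 12.4% in Control. Levels are given as CPM, counts divided by a library size that was adjusted with edgeR's TMM factors. Lats1 had 30.0 and 29.7 CPM in DCKO 1 and DCKO 2, against 44.2 and 65.6 in Control 1 and Control 2. Lats2 had 21.2 and 35.3 CPM in DCKO and 26.7 and 13.3 in Control, overlapping groups that do not check its deletion. Of 12 markers each, 9 neural progenitor and 7 neuron markers were lower in DCKO, while 8 surface ectoderm, 9 cranial mesenchyme and 8 endothelial markers were higher. Summed over the list, neuron markers had 576 and 253 CPM in DCKO and 1034 and 1316 in Control, and endothelial markers 902 and 527 in DCKO and 193 and 181 in Control. Surface ectoderm markers summed to 285 and 303 CPM in DCKO and 19.2 and 33.6 in Control. Erythroid markers, 8 of them lower, summed to 909 and 665 CPM in DCKO and 2591 and 3839 in Control, and macrophage markers, 0 of them past the threshold, to 118 and 38.1 in DCKO and 36.5 and 49.7 in Control. Of all these lists, 0 held a marker at 0 counts in all 4 libraries. Fewer cells of a type and less RNA per cell cannot be told apart in these bulk libraries, and the part of cell composition in the results below was not tested.

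Chromatin genes changed in both directions in DCKO. In edgeR's quasi-likelihood test with Benjamini-Hochberg adjustment over all 19207 tested genes, 6 of the 64 tested members were higher and 7 were lower. These are 9.38% and 10.9% of the tested members, beside 8.93% and 8.11% of all tested genes, so the share called was near that of the transcriptome. The higher genes were Kdm3a, Kdm4c, Kdm7a, Smarca2, Tet1 and Tet2, and the lower genes were Chd7, Smarcd1, Smarcad1, Kdm1b, Kdm3b, Hdac9 and Tet3. An additional 13 members had adjusted p-values between 0.05 and 0.1, beside 2330 of all 19207 tested genes. An unadjusted p under 0.05 was found for 32 of the 64 members, beside 35.9% of all tested genes. The members' median log2 fold change was -0.24, beside 0.03 for all tested genes. Both DCKO libraries lay below both Control libraries for 36 members, above them for 15 and overlapped with them for 13, while 32.9% of all tested genes lay below and 33.6% above, 66.4% together.

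A few features of the data bear on these counts. Library totals in place of TMM moved the median of all genes by -0.35 on the log2 scale. With these totals 3 of 64 members were higher and 27 lower, beside 1219 higher and 3744 lower of all 19207 tested genes. Leaving out Control 1 or Control 2 left 0 members past the threshold in edgeR, though 15 and 18 had unadjusted p-values under 0.05. The spread then came from the DCKO pair alone, and the lone Control library was assumed to vary as that pair does. Without DCKO 1, 9 members were higher and 7 lower, and without DCKO 2, 6 and 14. Over all tested genes, calls likewise became far fewer without either Control library and more numerous without either DCKO library. The DCKO libraries differed more from each other than the Control libraries did, by a median of 0.24 against 0.10 on the log2 scale of CPM over the tested members. That gap exceeded 0.5 for 14 members between the DCKO libraries and for 2 between the Control libraries.

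**Figure D1:**
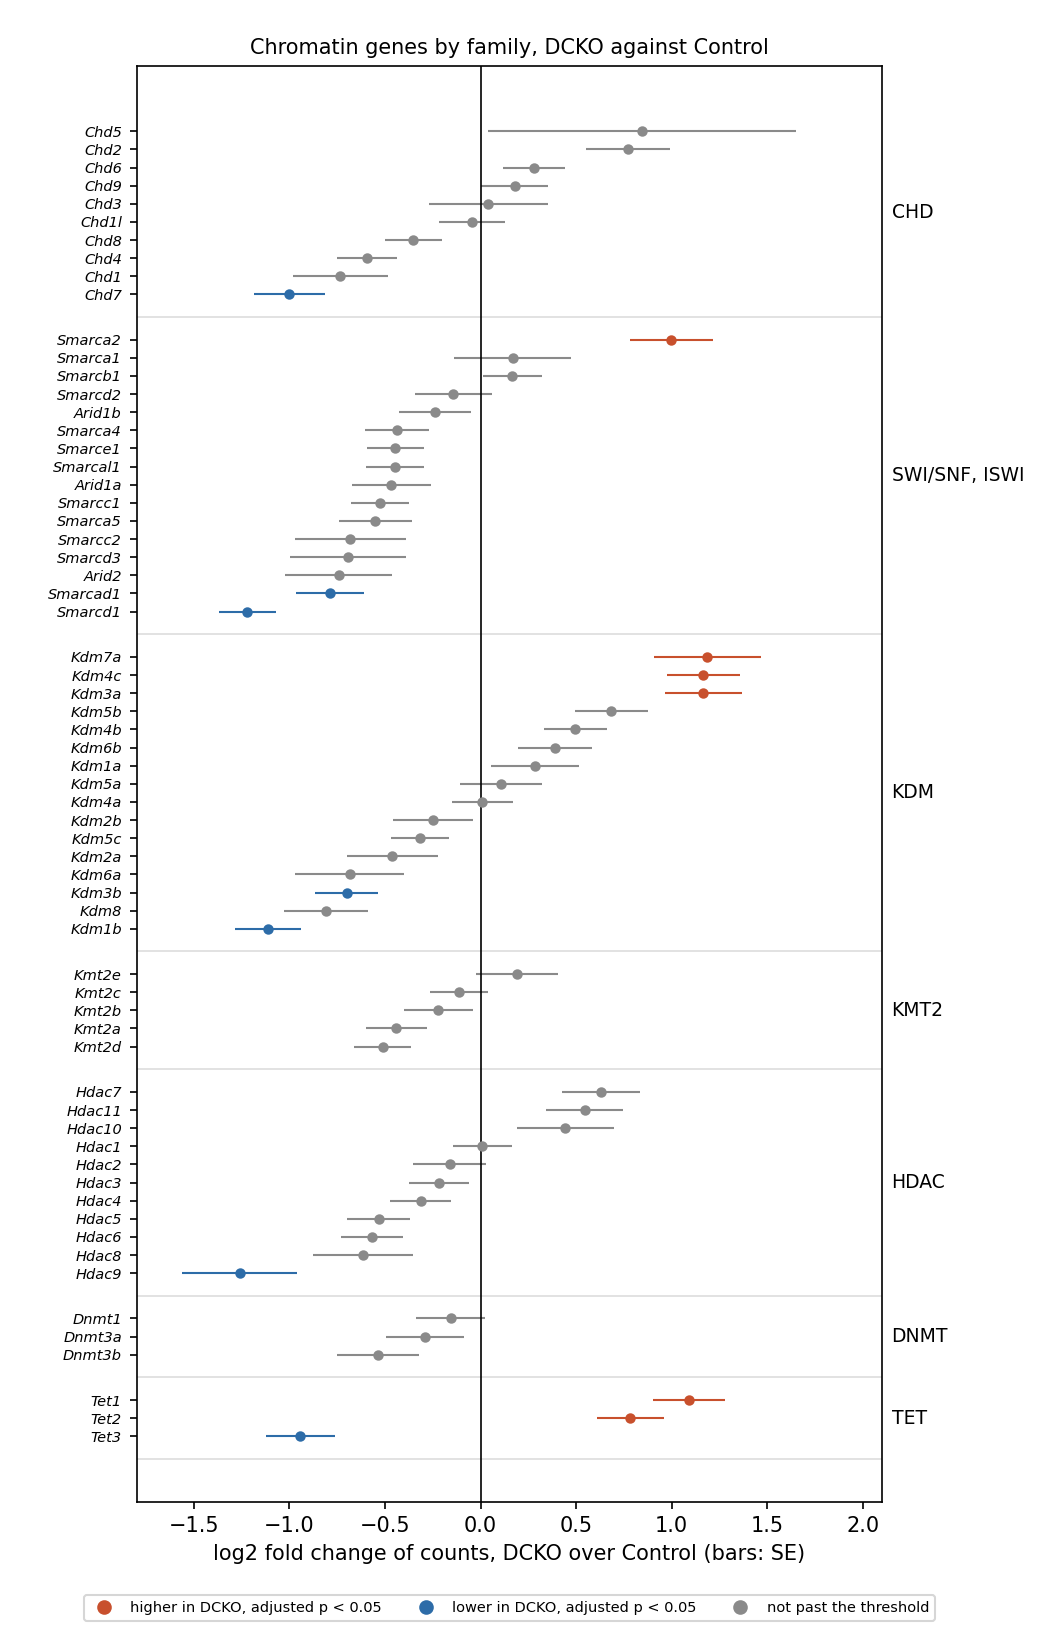
Log2 fold change of counts, DCKO over Control, for the 64 tested members, with genes down the page by family and bars for the standard error (n = 2 libraries per group). The 6 genes higher in DCKO and the 7 lower ones are coloured, and most SWI/SNF genes lie left of 0 while TET genes lie on both sides.

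The members were well expressed. In the deposited TPM, a unit that allows genes to be compared per length, 54 of 65 members averaged at least 10 over the 4 libraries, with a median of 23.1. All protein-coding genes with a mean of at least 1 TPM had a median of 13.7. The highest mean levels belonged to Smarcc1 (183 TPM), the SWI/SNF scaffold, Chd4 (167 TPM), a NuRD ATPase, and Smarcb1 (138 TPM), a core SWI/SNF subunit. Chd5 and Kdm4d, at 0.0604 and 0.103 TPM, were close to absent.

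Of 16 tested SWI/SNF and ISWI genes, 2 fell and 1 rose. By sign alone, 13 had a negative and 3 a positive log2 fold change, beside 9373 negative of 19207 tested genes. Both DCKO libraries lay below both Control libraries for 12 of the 16, beside 32.9% of all tested genes. The 16 were grouped by symbol and include Smarcad1 and Smarcal1 (-0.45, adjusted p 0.0993), which are not SWI/SNF or ISWI subunits. Both are among the genes with a negative sign and among the 12. The family's median was -0.46, and -0.81 with library totals. Smarcd1 (ENSMUSG00000023018, GRCm38 chromosome 15, 99702129 to 99713991), which encodes the BAF60A subunit that links the complex to transcription factors, had 81.8 and 85.1 CPM in DCKO, against 195.6 and 193 in Control. The replicates lay close together in both groups, and its log2 fold change of -1.22 (SE 0.15, adjusted p 0.0117) was the most significant among the members. Smarcad1 (ENSMUSG00000029920, chromosome 6, 65042583 to 65116061), a nucleosome remodeler of the wider SNF2 family that is not a SWI/SNF subunit, had 52.5 and 60.1 CPM in DCKO and 106 and 88.5 in Control (log2 fold change -0.79, SE 0.18, adjusted p 0.0393). Smarca2 (ENSMUSG00000024921, chromosome 19, 26605050 to 26778322), encoding the ATPase BRM, went the other way, with 42.4 and 30.4 CPM in DCKO and 17.7 and 18.8 in Control. Its log2 fold change was 1.00 (SE 0.22, adjusted p 0.0357). Without Control 1 and Control 2 in turn, adjusted p-values were 0.0774 and 0.0782 for Smarcd1, 0.249 and 0.137 for Smarcad1 and 0.216 and 0.192 for Smarca2. Smarcad1 also missed the threshold without DCKO 1, at 0.0580, and Smarca2 missed it with library totals, at a log2 fold change of 0.65.

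The other SWI/SNF and ISWI genes did not pass with all 4 libraries and TMM. Smarca4, encoding BRG1, had 401 and 339.5 CPM in DCKO and 488 and 515 in Control (log2 fold change -0.44, adjusted p 0.124). Smarcc1 had 396 and 375 CPM in DCKO and 573 and 537 in Control (-0.53, adjusted p 0.0684). Arid1a, the subunit that defines canonical BAF, had 146 and 204 CPM in DCKO and 238 and 246 in Control (-0.47, adjusted p 0.170), and Arid2, of the PBAF form, 66.9 and 112 in DCKO and 164 and 135 in Control (-0.74, adjusted p 0.123). For each of these 4 genes both DCKO libraries lay below both Control libraries. Smarcc1 passed with library totals (-0.87, adjusted p 0.0173), and without DCKO 2 so did Arid1a (adjusted p 0.0351) and Arid2 (0.0154). Smarcb1, by contrast, had 161 and 151 CPM in DCKO and 133 and 146 in Control (0.17, adjusted p 0.481). Smarcc2, encoding an alternative SWI/SNF scaffold to SMARCC1, split the DCKO embryos. It had 98.4 CPM in DCKO 1 and 55.3 in DCKO 2, against 120 and 127 in Control. Its log2 fold change was -0.68, and -1.16 without DCKO 1. Of the ISWI ATPases, Smarca5 had 207 and 204 CPM in DCKO and 344 and 259 in Control (-0.55, adjusted p 0.103), and the X-linked Smarca1 overlapped between groups. Reads of Smarca5 and Smarce1 could also be assigned to their processed pseudogenes, whose counts were low (11 and 25 in DCKO and 45 and 26 in Control for Smarca5-ps).

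**Figure D2:**
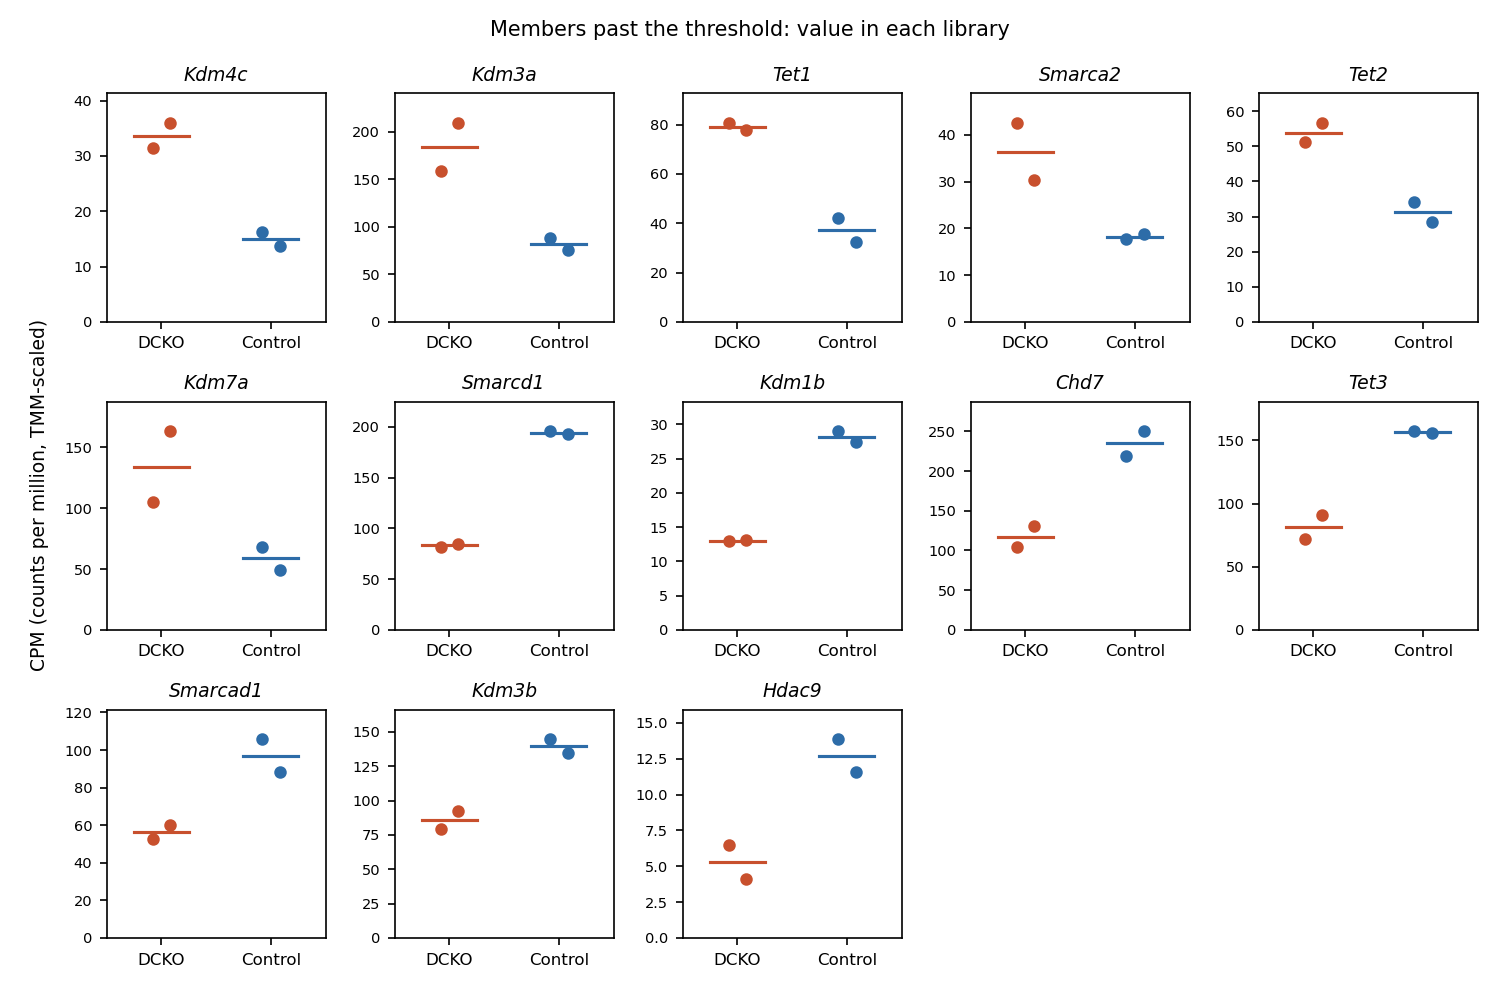
CPM in each library for the 13 members past the threshold, with 1 panel per gene, DCKO points to the left of Control points and a line at each group's mean (n = 2 libraries per group). The genes were chosen by the test on these libraries, so the lack of overlap in all 13 panels is no further evidence. The DCKO libraries lie farthest apart relative to their level in Hdac9 and Kdm7a.

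Among CHD remodelers, 1 of 10 tested genes fell and 0 rose, and the median log2 fold change was -0.0020, or -0.35 with library totals. Chd7 (ENSMUSG00000041235, chromosome 4, 8690406 to 8867659), the remodeler mutated in human CHARGE syndrome, had 104 and 131 CPM in DCKO and 219.5 and 250.02 in Control. Its log2 fold change was -1.001 (SE 0.19, adjusted p 0.0261). Without Control 1 and Control 2 the adjusted p was 0.109 and 0.149. Chd4 had 502 and 511 CPM in DCKO and 804 and 725 in Control and missed the threshold (-0.59, SE 0.16, adjusted p 0.0550), which it passed with library totals (-0.94, adjusted p 0.0155). Chd2, a remodeler linked to epilepsy in humans, had 67.6 and 98.4 CPM in DCKO and 49.2 and 48.04 in Control (0.77, SE 0.22, adjusted p 0.0672). Its gene body overlaps 4 annotated genes on the same strand. Chd3 differed between the DCKO embryos, with 245 CPM in DCKO 1 and 129 in DCKO 2, on either side of 184 and 180 CPM in Control. Chd8, an autism-linked remodeler, had 118 and 119 CPM in DCKO and 158 and 145 in Control (-0.35, adjusted p 0.160).

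Histone lysine demethylases split, with 3 of 16 tested genes higher and 2 lower. Their median log2 fold change was 0.06, and it took the other sign with library totals (-0.29), with TPM (-0.16 with a pseudocount of 1 TPM), without the filter on low counts (-0.02), and without Control 1 (-0.06), Control 2 (-0.0025) or DCKO 2 (-0.14). Kdm3a (ENSMUSG00000053470, chromosome 6, 71588972 to 71632990), encoding an H3K9 demethylase, had 159 and 209 CPM in DCKO and 88.3 and 75.9 in Control (log2 fold change 1.16, SE 0.20, adjusted p 0.0223). Kdm4c (ENSMUSG00000028397, chromosome 4, 74242497 to 74405860), whose product removes H3K9 and H3K36 methylation, had 31.4 and 35.9 CPM in DCKO and 16.3 and 13.7 in Control (1.17, SE 0.19, adjusted p 0.0195). Kdm7a (ENSMUSG00000042599, chromosome 6, 39136623 to 39206789), whose product demethylates H3K9 and H3K27, had 105 and 163 CPM in DCKO and 68.3 and 49.6 in Control (1.19, SE 0.28, adjusted p 0.0442).

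Kdm3b (ENSMUSG00000038773), the closest relative of Kdm3a, fell to 79.3 and 92.8 CPM in DCKO, against 145 and 135 in Control (-0.70, SE 0.17, adjusted p 0.0439). Kdm4a had 87.7 and 97.2 CPM in DCKO and 87.96 and 95.7 in Control, which overlap (0.010, SE 0.16, adjusted p 0.971). Kdm1b (ENSMUSG00000038080, chromosome 13, 47043499 to 47085279), encoding the H3K4 demethylase LSD2, fell to 13.02 and 13.1 CPM in DCKO, against 29.0 and 27.4 in Control (-1.11, SE 0.17, adjusted p 0.0180). Its gene body overlaps Dek and Tpmt on the other strand, and whether strand was used in counting is not stated. Kdm1a, encoding LSD1, had 159 and 240.1 CPM in DCKO and 161 and 167 in Control (0.29, SE 0.23, adjusted p 0.421). Without Control 1 and Control 2, adjusted p-values were 0.105 and 0.153 for Kdm3a, 0.108 and 0.159 for Kdm4c, 0.115 and 0.220 for Kdm7a, 0.253 and 0.189 for Kdm3b and 0.148 and 0.122 for Kdm1b. Without DCKO 1, Kdm3b had 0.0668. With library totals Kdm7a no longer passed, at a log2 fold change of 0.84. In limma on log2(TPM + 1), Kdm4c (adjusted p 0.0875), Kdm7a (0.121) and Kdm3b (0.0967) did not pass.

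Of the other demethylases, Kdm5b, which encodes an H3K4 demethylase, had 308 and 391 CPM in DCKO and 234 and 202 in Control (0.68, SE 0.19, adjusted p 0.0626). Kdm6b, encoding the H3K27 demethylase JMJD3, had 176 and 235 CPM in DCKO and 154 and 159.8 in Control (0.39, SE 0.19, adjusted p 0.206). Both DCKO libraries were above both Control libraries for these 2 genes. Kdm8 had 6.10 and 6.39 CPM in DCKO and 10.9 and 11.01 in Control (-0.81, SE 0.22, adjusted p 0.0601).

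Members on the X chromosome need the sex of the embryos, which is not given. Xist, the RNA of the inactive X, had 0.20 and 0.595 CPM in DCKO and 173 and 154 in Control, so embryo sex and genotype cannot be told apart. The Y-linked Kdm5d had 0 counts in each library, DCKO included, and so gave no sign of a Y chromosome in either group. Whether reads of Y genes were counted was not tested, and the sex of the embryos stays unassigned. Kdm6a and Kdm5c, which are known to escape X inactivation, had log2 fold changes of -0.69 (SE 0.28, adjusted p 0.149) and -0.32 (SE 0.15, adjusted p 0.193). Kdm6a had 25.5 and 43.7 CPM in DCKO and 59.997 and 51.3 in Control, and Kdm5c 159 and 151 in DCKO and 199.9 and 186 in Control. The deacetylase genes Hdac6 and Hdac8 had -0.57 (SE 0.16, adjusted p 0.0656) and -0.62 (SE 0.26, adjusted p 0.159), and Smarca1 had 0.17 (SE 0.30, adjusted p 0.729). Thus 0 of the 5 X-linked members passed in edgeR, though 1 had an unadjusted p under 0.05, and 0 passed without Control 1, Control 2 or DCKO 1. Without DCKO 2, Kdm6a and Hdac6 passed, at adjusted p-values of 0.0140 and 0.0440. With library totals 4 of the 5 passed as lower in DCKO, Hdac6 (0.0168), Kdm5c (0.0319), Hdac8 (0.0481) and Kdm6a (0.0482). The groups did not overlap for 4 of the 5, beside 66.4% of all tested genes. The 13 members past the threshold all lie on autosomes.

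Most KMT2 proteins add methyl groups to H3K4 at promoters and enhancers. Of the family, 0 of 5 passed in edgeR, though 2 had unadjusted p-values under 0.05, and leaving out any single library brought no call. Kmt2d, of enhancers, had 123 and 125 CPM in DCKO and 183 and 171 in Control (-0.51, SE 0.15, adjusted p 0.0692). Kmt2a had 63.1 and 72.3 CPM in DCKO and 92.3 and 91.7 in Control (-0.44, SE 0.16, adjusted p 0.112). Kmt2c, the partner of Kmt2d in function, had 66.2 and 65.95 CPM in DCKO and 74.2 and 68.9 in Control (-0.11, SE 0.15, adjusted p 0.626). For 4 of the 5 genes the DCKO libraries lay below both Controls, beside 32.9% of all tested genes, and the family's median was -0.22. The exception was Kmt2e, the family's highest in mean TPM (22.5). It had 80.8 and 116 CPM in DCKO and 85.7 and 87.0 in Control (0.19, SE 0.22, adjusted p 0.567).

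Histone deacetylases had 1 of 11 genes lower and 0 higher, with a median of -0.22. Hdac9 (ENSMUSG00000004698, chromosome 12, 34047580 to 34917095), a class IIa deacetylase known from muscle and neurons, had 6.47 and 4.14 CPM in DCKO and 13.9 and 11.6 in Control. Its log2 fold change was -1.26 (SE 0.30, adjusted p 0.0455), and the adjusted p was 0.253 and 0.163 without Control 1 and Control 2. Neither Hdac1 nor Hdac2, which encode the catalytic subunits of NuRD and SIN3 complexes, passed. Hdac1 had 123 and 119 CPM in DCKO and 114 and 127 in Control (0.0084, SE 0.15), and Hdac2 182 and 137 in DCKO and 182 and 175 in Control (-0.16, SE 0.19), with adjusted p-values of 0.976 and 0.585. The class IIa genes Hdac5 and Hdac7 lay on opposite sides. Hdac5 had 29.02 and 32.4 CPM in DCKO and 47.05 and 41.9 in Control (-0.53, adjusted p 0.0803), and Hdac7, known from endothelium, 54.6 and 75.3 in DCKO and 41.1 and 42.8 in Control (0.63, adjusted p 0.0883). Endothelial markers were higher in the same DCKO libraries, as given above, and their part in the values of Hdac7 was not tested.

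DNA methyltransferases did not pass in edgeR, with 0 of 3 past the threshold, 1 at an unadjusted p under 0.05 and 0 called without any single library. Dnmt1, the maintenance enzyme, had 362 and 284 CPM in DCKO and 366 and 355 in Control (-0.16, SE 0.18, adjusted p 0.574). Dnmt3a and Dnmt3b, which methylate DNA de novo, had -0.29 (SE 0.20, adjusted p 0.356) and -0.54 (SE 0.21, adjusted p 0.137). Dnmt3a differed between the DCKO embryos, with 116 CPM in DCKO 1 and 84.0 in DCKO 2, both under 122 and 123 in Control.

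All 3 TET dioxygenase genes passed, in opposite directions. Tet1 (ENSMUSG00000047146, chromosome 10, 62804570 to 62908996) had 80.6 and 77.6 CPM in DCKO and 42.02 and 32.3 in Control (log2 fold change 1.09, SE 0.19, adjusted p 0.0224). Tet2 (ENSMUSG00000040943, chromosome 3, 133463679 to 133545139) had 51.2 and 56.5 CPM in DCKO and 34.3 and 28.4 in Control (0.78, SE 0.18, adjusted p 0.0387). Tet3 (ENSMUSG00000034832, chromosome 6, 83362373 to 83459084), the member known for its expression in brain, had 72.1 and 90.7 CPM in DCKO and 157 and 156 in Control (-0.94, SE 0.18, adjusted p 0.0271). Without Control 1 and Control 2, adjusted p-values were 0.0839 and 0.163 for Tet1, 0.162 and 0.275 for Tet2 and 0.147 and 0.140 for Tet3. Tet2 also missed the threshold with library totals, at a log2 fold change of 0.43, and without the filter on low counts. In TPM, Tet1 had 30.6 and 31.5 in DCKO and 16.02 and 10.4 in Control, and Tet3 had 13.7 and 15.1 in DCKO and 31.1 and 24.8 in Control. Tet1 was thus the highest TET transcript per length in both DCKO libraries, and Tet3 in both Control libraries. The summed TPM of the 3 genes was 55.3 and 62.3 in DCKO and 55.6 and 42.1 in Control.

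The upstream sequences of the TET genes are shown because these 3 genes, whose products act on methylated CpG, moved in opposite directions. They are the 250 bases before the start of each gene in RefSeq (GRCm38.p6), 5′ to 3′ in the direction of the gene, with each CpG in capitals, at chr10:62887325-62887574 on the minus strand for Tet1, chr3:133544391-133544640 on the minus strand for Tet2 and chr6:83441679-83441928 on the minus strand for Tet3.
Tet1: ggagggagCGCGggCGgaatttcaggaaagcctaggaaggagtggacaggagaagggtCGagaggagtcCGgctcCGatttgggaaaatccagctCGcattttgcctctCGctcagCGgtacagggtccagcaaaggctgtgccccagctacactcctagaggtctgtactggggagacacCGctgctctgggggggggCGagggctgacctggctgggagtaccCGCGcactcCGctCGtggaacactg
Tet2: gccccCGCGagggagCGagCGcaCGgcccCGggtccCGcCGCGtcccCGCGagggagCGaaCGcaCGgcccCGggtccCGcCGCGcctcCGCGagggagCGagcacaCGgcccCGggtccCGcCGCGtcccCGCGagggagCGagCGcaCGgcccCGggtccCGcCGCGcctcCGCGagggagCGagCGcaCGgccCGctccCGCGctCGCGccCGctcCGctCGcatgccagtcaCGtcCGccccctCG
Tet3: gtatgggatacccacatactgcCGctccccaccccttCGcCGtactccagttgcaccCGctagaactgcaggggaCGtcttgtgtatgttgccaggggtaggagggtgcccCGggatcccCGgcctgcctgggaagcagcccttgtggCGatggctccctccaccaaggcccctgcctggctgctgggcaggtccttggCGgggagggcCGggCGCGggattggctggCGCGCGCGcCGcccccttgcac
Each of these starts coincides with the start of a GENCODE M21 transcript of the gene, but the windows lie inside the gene spans given above. Other starts thus exist, and the counts do not tell which was used. The windows hold 15, 51 and 17 CpGs for Tet1, Tet2 and Tet3, so the rising pair had both the lowest and the highest count. The ratios of observed to expected CpG were 0.630, 1.19 and 0.562 in the same order, lowest for the falling Tet3. The median ratio was 0.374 over all 32851 RefSeq promoters and 0.818 over the 68 promoters of 49 members that matched by symbol. The core TEAD motif GGAATG, searched on both strands, was found in 6 of the 68 member promoters (8.82%), beside 12.6% of all promoters. It was found in 0 of the 16 promoters of the 11 called members that matched, which says only that these letters are not in those windows.

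For comparison, the 250 bases before a RefSeq start are given in the same way for the SWI/SNF genes that passed in opposite directions. The windows lie at chr19:26604910-26605159 on the plus strand for Smarca2 and chr15:99702037-99702286 on the plus strand for Smarcd1. Their RefSeq starts lie 41 and 4 bases from the nearest GENCODE M21 start. Both windows run past the gene start given above, so part of each lies inside the annotated gene.
Smarca2: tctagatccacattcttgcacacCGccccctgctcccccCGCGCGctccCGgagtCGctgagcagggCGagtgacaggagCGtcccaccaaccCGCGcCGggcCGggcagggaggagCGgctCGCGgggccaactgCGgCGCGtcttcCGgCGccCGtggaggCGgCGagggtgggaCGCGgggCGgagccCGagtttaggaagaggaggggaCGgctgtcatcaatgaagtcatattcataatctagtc
Smarcd1: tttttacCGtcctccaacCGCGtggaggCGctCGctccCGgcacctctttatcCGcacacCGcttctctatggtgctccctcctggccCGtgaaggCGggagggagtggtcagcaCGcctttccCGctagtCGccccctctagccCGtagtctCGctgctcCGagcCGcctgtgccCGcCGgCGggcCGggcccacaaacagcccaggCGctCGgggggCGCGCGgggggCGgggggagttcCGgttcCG
They hold 28 and 29 CpGs, near-equal numbers for a gene that rose and a gene that fell, and neither holds GGAATG.

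Ratios between related genes in the same library do not depend on scaling between libraries, and are given from the deposited TPM. An exact two-sided permutation test of 2 against 2 libraries cannot give a p below 0.333, so these are descriptions. Tet3/Tet1 was 0.446 and 0.479 in DCKO and 1.94 and 2.38 in Control. Smarca2/Smarca4, the choice of SWI/SNF ATPase, was 0.234 and 0.194 in DCKO and 0.0772 and 0.106 in Control, so that Smarca4 mRNA was the more abundant in all 4 libraries. Smarcd1/Smarcd2, alternative BAF60 subunits, was 3.79 and 3.26 in DCKO and 8.23 and 8.64 in Control. Kdm5c/Kdm5b was 0.701 and 0.564 in DCKO and 1.29 and 1.34 in Control, and Kdm6b/Kdm6a 3.47 and 2.63 in DCKO and 1.24 and 1.47 in Control, both with an X-linked gene in the pair. Kmt2c/Kmt2d was 0.825 and 1.18 in DCKO and 0.615 and 0.616 in Control.

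Ratios that overlapped between groups included Hdac1/Hdac2, at 0.709 and 0.962 in DCKO and 0.680 and 0.777 in Control. Dnmt3a/Dnmt3b was 6.78 and 1.97 in DCKO and 3.21 and 4.17 in Control, with the DCKO libraries on either side of both Controls. This holds in TPM only, where Dnmt3a had 43.9 in DCKO 1 and 17.8 in DCKO 2, beside 116 and 84.0 CPM. In counts, the ratio of DCKO 2 lay between those of the Controls. The pairs that mark the exchange of SWI/SNF subunits between neural progenitors and neurons also overlapped. Actl6b/Actl6a, the neuronal over the progenitor BAF53 subunit, was 0.0305 and 0.00109 in DCKO and 0.0282 and 0.0377 in Control. The neuronal Actl6b itself had 1.55 and 0.0790 TPM in DCKO and 2.87 and 3.65 in Control. Its DCKO 2 value rests on 3 counts, against 60 in DCKO 1 and 107 and 169 in Control. Actl6b did not pass in edgeR (-1.66, SE 1.11, adjusted p 0.333). Neuron markers were lowest in the same library, DCKO 2, with the summed values given above, and their part in the ratio was not tested. Dpf1/Phf10 was 0.284 and 0.207 in DCKO and 0.235 and 0.363 in Control.

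**Figure D3:**
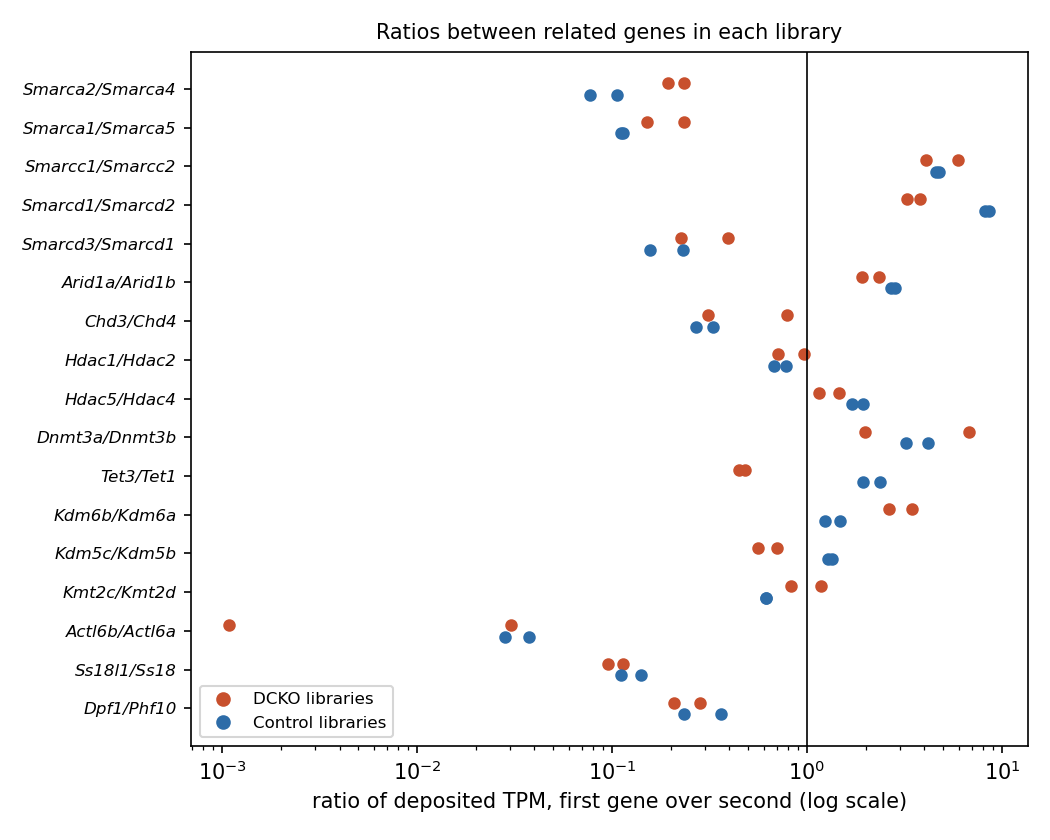
Ratio of deposited TPM between related genes in each library, on a log scale, with DCKO libraries above Control libraries in each row (n = 2 per group). Tet3/Tet1 lies on opposite sides of 1 in the 2 groups, at 0.446 and 0.479 in DCKO and 1.94 and 2.38 in Control.

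Genes that work with these families were examined in 8 lists of 128 genes, all tested. Of these, 7 were higher and 16 lower in DCKO (5.47% and 12.5%, beside 8.93% and 8.11% of all tested genes), and their median change was -0.24 on the log2 scale. Without Control 1, 0 were higher and 3 lower, and without Control 2, 0 and 1. With library totals 3 were higher and 45 lower, beside 1219 higher and 3744 lower of all 19207 tested genes. Of 24 Polycomb genes, 4 rose and 2 fell. Cbx2, a chromatin-binding subunit of PRC1, fell to 31.7 and 42.8 CPM in DCKO, against 157 and 154 in Control (-2.06, SE 0.20, adjusted p 0.00806). It was the partner gene lower without Control 2 (0.0432), and it passed without each other library too. Phc2, another PRC1 subunit, fell by 0.94 (SE 0.17, adjusted p 0.0231), and Pcgf5, of a variant PRC1, rose by 1.86 (SE 0.36, adjusted p 0.0284). Ezh2, the main H3K27 methyltransferase, had 143 and 144 CPM in DCKO and 168 and 143 in Control (-0.12, adjusted p 0.649). The related Ezh1 rose, with 16.3 and 14.3 CPM in DCKO and 7.04 and 7.47 in Control (1.08, SE 0.21, adjusted p 0.0293). The remaining higher genes were Cbx7 (2.00, SE 0.45, adjusted p 0.0398) and Pcgf1 (1.08, SE 0.23, adjusted p 0.0358). The calls of Ezh1, Cbx7 and Pcgf1 were lost without Control 1 or Control 2. Without Control 1 and Control 2, Phc2 had adjusted p-values of 0.125 and 0.143 and Pcgf5 0.126 and 0.155.

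Of 22 COMPASS and other methyltransferase genes, 4 were lower and 0 higher. Setd1b, an H3K4 methyltransferase, fell to 22.1 and 27.4 CPM in DCKO, against 73.3 and 83.5 in Control (-1.66, SE 0.19, adjusted p 0.00988). Ehmt1 and Suv39h2, which encode H3K9 methyltransferases, fell by 0.83 (SE 0.15, adjusted p 0.0240) and 1.02 (SE 0.23, adjusted p 0.0395). Ehmt2, the partner of Ehmt1, was the remaining call (-0.65, SE 0.15, adjusted p 0.0452). That call was lost without Control 1, Control 2 or DCKO 1, at log2 fold changes of -0.69, -0.64 and -0.59. Setd1b had adjusted p-values of 0.0479 and 0.0619 without Control 1 and Control 2, Ehmt1 0.149 and 0.155, and Suv39h2 0.221 and 0.127.

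Among DNA methylation partners, 4 of 11 were lower and 1 higher. Trim28, the corepressor KAP1, had 409 and 404 CPM in DCKO and 812 and 760 in Control (-0.95, SE 0.15, adjusted p 0.0189), and Cxxc4, a CXXC protein that binds unmethylated CpG and restrains TET2, fell by 1.49 (SE 0.30, adjusted p 0.0295). Uhrf2 rose by 0.90 (SE 0.15, adjusted p 0.02002), while Uhrf1, which brings DNMT1 to DNA, had -0.20 (adjusted p 0.454). Of 19 other SWI/SNF subunits, 1 was lower, Bcl7a, with 23.2 and 16.97 CPM in DCKO and 71.8 and 92.5 in Control (-2.03, SE 0.24, adjusted p 0.0106). Of 14 ISWI, INO80 and SRCAP partners, 2 were lower, the X-linked Atrx (-1.25, SE 0.16, adjusted p 0.0126) and Baz1b (-1.07, SE 0.15, adjusted p 0.0159). Of 19 NuRD, SIN3, CoREST and NCoR partners, 2 were higher, Mta3 (0.92, SE 0.19, adjusted p 0.0316) and Sap30 (0.70, SE 0.16, adjusted p 0.0430). Kat6a and Brd3 were the 2 of 12 acetyltransferase and BET genes that fell, and Sirt6 the 1 of 7 sirtuins. Without Control 1 or Control 2, Bcl7a had adjusted p-values of 0.0351 and 0.0550, while Atrx had 0.0624 and 0.0868 and every other called gene of these lists had a higher value in each case. Sap30 also missed the threshold without DCKO 2, at 0.0535.

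**Figure D4:**
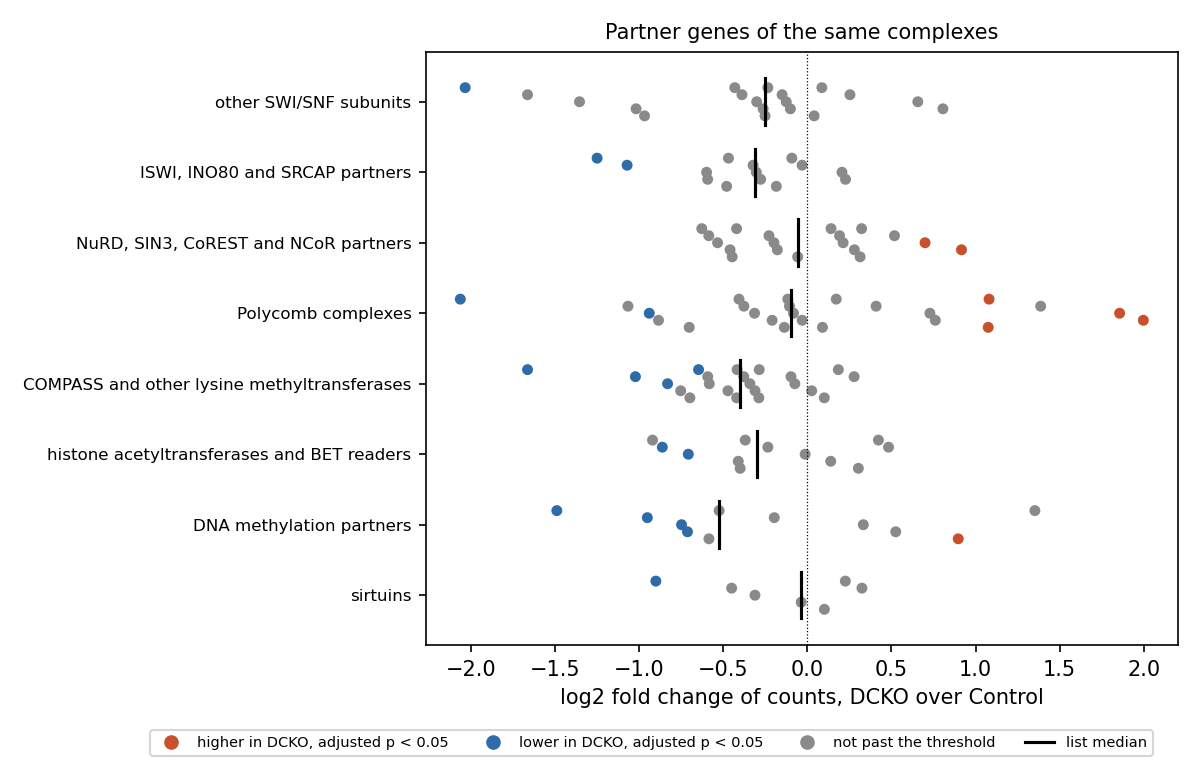
Log2 fold change of counts, DCKO over Control, for the genes of 8 partner lists, with 1 point per gene and a black line at each list's median. Points past the threshold are coloured; 4 Polycomb genes were higher in DCKO, and 4 methyltransferase and 4 DNA methylation genes were lower.

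The authors' deposited table of differential expression lists 63 of the members. At a false discovery rate under 0.05, it holds 8 members higher and 7 lower in DCKO, beside 15.6% and 13.2% of its 12574 genes and 28.8% in either direction. All 13 members called here are among those 15, and the other two are Kdm5b and Chd2, with false discovery rates of 0.0203 and 0.0232 in the authors' deposited table. That table was made from the same 4 libraries.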

How the data were processed

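The authors deposited raw read counts per Ensembl gene and TPM per gene, with 1 column per library, and a differential expression table (log2 fold changes, p-values, false discovery rates). Per the submitters' processing notes, the tools were R 3.3.2, limma 3.30.13, edgeR 3.16.5, StringTie and TopHat2 2.1.1, and the builds GRCm38 and mm10 are named, without roles. The strand setting of counting is not given in the sources used here; 10 of the 13 called members overlap another annotated gene, 2 of them a protein-coding one. Symbols and coordinates are from GENCODE M21 on GRCm38 (54495 of 54532 IDs matched).

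Counts were fitted with edgeR 4.0.16 in R 4.3.3 (filterByExpr with a minimum count of 10 and total of 15, TMM factors, quasi-likelihood test with group as the only term, 2 residual degrees of freedom, two-sided, Benjamini-Hochberg over 19207 genes, threshold 0.05). Alternatives were other scalings, no filter, DESeq2 1.42.0, limma 3.58.1 (voom, and log2(TPM + 1) or log2(TPM + 0.1)), a replicate block and leaving out each library. P-values measure the spread between these embryos only. Intervals of counting error were not used.

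Members, lists, pairs and the named genes (all called members, the highest per family, X-linked members, listed pairs and up to 3 called genes per partner list) were chosen with earlier results of these data known. For the Polycomb and methyltransferase lists, all called genes are named. The replicate numbers are not stated to pair the samples.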

Additional observations from a re-analysis of the deposited data

How the results depend on the processing

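Scaling by DESeq2 size factors or the upper quartile, limma-voom, and leaving out the ribosomal cluster with X and Y genes kept the number of members called within 1.5 times. With library totals, 3 members were higher and 27 lower, and 3 and 45 partner genes; the median log2 fold change was -0.59 over members, -0.35 for CHD, -0.81 for SWI/SNF and ISWI, -0.29 for KDM, -0.57 for KMT2, -0.57 for HDAC, -0.64 for DNMT and 0.43 for TET genes. Kdm1a (-0.064), Kmt2e (-0.16) and Smarca1 (-0.18) then changed sign. DESeq2 called 15 members lower, and 12 partner genes higher and 28 lower. With limma on log2(TPM + 1), 2 members and 2 partner genes were higher, with medians of -0.39 over members, -0.27 for CHD, -0.64 for SWI/SNF and ISWI, -0.16 for KDM, -0.39 for HDAC and -0.60 for DNMT genes, and Kdm1a (-0.13), Kmt2e (-0.0046) and Smarca1 (-0.029) changed sign. A pseudocount of 0.1 TPM gave 2 members and 2 partner genes higher, medians of -0.39, -0.29, -0.65, -0.17, -0.39 and -0.66 in the same order, and -0.13 for Kdm1a, -0.0068 for Kmt2e and -0.029 for Smarca1. Without a filter, log2(TPM + 1) gave 0 calls among members, partner genes and all genes, with 21 members at an unadjusted p under 0.05 in limma and medians of -0.37, -0.25, -0.64, -0.13, -0.39 and -0.60, and -0.13, -0.0046 and -0.029 for the same 3 genes. With either pseudocount and the filter, Kdm3b, Kdm4c, Kdm7a, Smarca2, Smarcad1 and Tet2 lost their calls, with adjusted p-values of 0.0853 to 0.154. DESeq2 called Chd4 (adjusted p 0.0044), Smarcc1 (0.0111) and Hdac6 (0.0192), limma-voom Chd4 (0.0428), and limma on log2(TPM + 1) Chd4 (0.0453) and Smarcc1 (0.0391), which has 0.0438 with 0.1 TPM. The cause of these changes was not tested.

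With the replicate number as a block, which leaves 1 residual degree of freedom, 3 members were higher and 3 lower, and 1 and 8 partner genes. The deviations of samples of the same number had a correlation of -0.081. With 2 libraries per group this cannot decide whether the numbers pair the samples.

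Leaving out 1 library at a time gave 0 to 9 members higher and 0 to 14 lower, and 0 to 9 partner genes higher and 1 to 25 lower. Medians ranged from -0.35 to -0.25 over members, -0.42 to 0.0098 for CHD, -0.48 to -0.43 for SWI/SNF and ISWI, -0.14 to 0.077 for KDM, -0.35 to -0.11 for KMT2, -0.39 to -0.22 for HDAC, -0.46 to -0.08 for DNMT and 0.62 to 0.92 for TET genes. Smarca1 changed sign without Control 2 (-0.12) and DCKO 1 (range -0.20 to 0.47), and without DCKO 2 so did Dnmt1 (0.0061), Hdac2 (0.028), Kdm1a (range -0.045 to 0.55) and Kmt2e (range -0.10 to 0.42). Depth was lowest for Kdm4d, with 36 counts over 4 libraries, and Chd5, with 72; how far depth or the spread between embryos limits a call was not tested.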

Other observations

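Kdm6bos, the antisense gene within Kdm6b, had 100 and 134 counts in DCKO and 9 and 157 in Control, so that Control 1 stood apart from the other 3 libraries. Kdm6b itself had 176 and 235 CPM in DCKO and 154 and 159.8 in Control. Without the strand setting of the counting, reads of the pair cannot be told apart.

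Some chromatin genes differed widely between the DCKO embryos. Smarcd3, a BAF60 subunit of heart and neurons, had 24.8 CPM in DCKO 1 and 15.2 in DCKO 2, against 26.8 and 37.9 in Control. Kdm2a, encoding an H3K36 demethylase that binds CpG islands, had 56.6 CPM in DCKO 1 and 87.4 in DCKO 2, against 100.2 and 98.1 in Control. DCKO 1 was the nearer to Control for Smarcd3, and DCKO 2 for Kdm2a.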
